A study of Mus musculus with 6 samples.

Results

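The genes described here are those of mouse chromosome 4 that start between 125 and 135 Mb of the GRCm38 assembly. Of the 55536 genes in the count table, 306 start at a base from 125000000 to 134999999, and 188 of these had 10 or more counts in at least 2 libraries. With 5 of them not analysed here, 183 members remained, of which 160 are protein-coding, 20 are long noncoding genes and 3 are of other types. The filter on low counts passed 182 members, and Gm12945 (4 and 10 counts in WT, 15 and 5 in P2KO and 10 and 9 in DKO) was not tested. No member reached 10 counts in the libraries of 1 genotype alone, and 167 members had that many in each of the 6 libraries.

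A chromosome segment of this size holds genes of unrelated function that sit side by side, some of them sharing a promoter region or overlapping on opposite strands. In the adult testis most RNA comes from meiotic and postmeiotic germ cells, which transcribe a large part of the genome, long noncoding genes included. Among the genes of the interval are makers of sperm proteins, argonautes that carry small RNAs, subunits of histone-modifying complexes and genes of the DNA damage response.

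The study sequenced polyadenylated RNA from whole testes of 4-month-old mice with a strand-specific kit, and asked what the loss of 2 peptidylarginine deiminases, enzymes that turn arginine in proteins into citrulline, does in the testis. WT mice were FVB/NJ, the strain of both mutants too. P2KO mice carry a gene trap that replaces part of exon 1 of Padi2, and DKO mice carry the same trap and in addition a deletion of 4 nucleotides in exon 1 of Padi4, made by CRISPR in P2KO zygotes and carried on from 1 founder that was crossed back to P2KO. Since every genotype is 1 line bred from homozygotes, the targeted alleles and anything else that differs between the lines cannot be told apart. Each genotype had 2 mice and thus 2 libraries, and all p-values measure differences against the spread between such pairs of mice. Gene counts added up to 21939393 and 26081756 for WT, 27306679 and 23072179 for P2KO and 26068171 and 23366962 for DKO.

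Padi2 and Padi4 lie on the same chromosome, past the end of the interval, at chr4:140906344-140952586 and chr4:140745865-140774236. The first member, Gnl2, starts 15.9 Mb before Padi2 and the last, Syf2, 5.98 Mb before it. Log2 fold changes are given with a standard error (SE) and with the p-value of edgeR's test adjusted over all tested genes. Padi2 had 47 and 64 counts in WT, 100 and 55 in P2KO and 59 and 83 in DKO. After scaling, the libraries of the 3 genotypes overlapped, and the means over the whole gene were no lower in P2KO and DKO than in WT, with a log2 fold change of 0.35 (SE 0.242, adjusted p 0.575) in DKO against WT. These counts do not check the labels. Padi4 had 20 and 43 counts in WT, 11 and 10 in P2KO and 4 and 4 in DKO. Both DKO libraries were lowest for Padi4, and its log2 fold change was -2.94 (SE 0.513, adjusted p 0.000278) in DKO against WT and -1.63 (SE 0.423, adjusted p 0.0959) in P2KO against WT. Genotypes named from here on are the labels of the libraries.

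The libraries carried the marker genes of the testis. The 5 genes of elongating spermatids (Prm1, Prm2, Tnp1, Tnp2 and Odf1) had the highest summed normalized count, which is a count scaled to a common library size, with 334983 and 347324 in WT, 283774 and 314324 in P2KO and 306767 and 305953 in DKO. All 4 libraries of P2KO and DKO were below both WT libraries in this sum, and 2 of its 5 genes were lower in DKO against WT, Prm1 with a log2 fold change of -0.22 (SE 0.0586, adjusted p 0.0302) and Tnp1 with -0.25 (SE 0.0620, adjusted p 0.013). In P2KO against WT, Tnp2 alone of the 5 was called, at -0.29 (SE 0.0495, adjusted p 0.000762), and Prm2, the most abundant of the list, had 117958 and 144174 counts in WT, 126073 and 118921 in P2KO and 127989 and 112099 in DKO. Genes of Leydig cells (Star, Cyp17a1, Cyp11a1, Hsd3b6, Insl3 and Hsd17b3) summed to 16473 and 15791 in WT, 18858 and 16569 in P2KO and 22513 and 18042 in DKO. Of these 6 genes, 4 were higher in DKO against WT (Star at 0.51, Hsd3b6 at 0.41, Cyp17a1 at 0.31 and Cyp11a1 at 0.28, with adjusted p-values from 0.000159 to 0.0324 in edgeR's quasi-likelihood test), and Hsd3b6 was also higher in DKO against P2KO, at 0.63 (SE 0.0720, adjusted p 2.93e-07). In DKO against WT, DESeq2 called 1 of the 6 on all 6 libraries and 2 on the 2 genotypes compared, and of the 5 genes of elongating spermatids 0 and 2. Cyp17a1, the most abundant of the 6 Leydig cell genes, had 8171 and 9233 counts in WT, 11865 and 8591 in P2KO and 13211 and 8856 in DKO, and none of the 6 was at 3 counts or fewer. The part of these cell types and of others in the differences given here was not tested, and in such whole-tissue libraries fewer cells of a type and less RNA per cell cannot be told apart.

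The other lists of cell type markers held 1 call by edgeR. Summed normalized counts over the 6 libraries ran from 1357 to 1631 for 5 genes of spermatogonia, from 25077 to 26639 for 5 of spermatocytes and from 14674 to 16661 for 4 of round spermatids. They ran from 6554 to 7622 for 6 genes of Sertoli cells, from 1184 to 1551 for 3 of peritubular myoid cells, from 1047 to 1301 for 5 of macrophages and from 188 to 253 for 3 of endothelium. Both DKO libraries were the highest for endothelium, with 188.1 and 199.0 in WT, 211.1 and 206.5 in P2KO and 248.1 and 253.4 in DKO. The medians of its 3 genes were 0.43 in DKO against WT and 0.51 in DKO against P2KO, where 1 and 2 of them had an unadjusted p under 0.05. For spermatogonia both DKO libraries were the lowest, with 1474 and 1409 in WT, 1541 and 1631 in P2KO and 1357 and 1394 in DKO. The 1 call was Spaca1 of round spermatids, lower in DKO against P2KO at -0.25 (SE 0.0647, adjusted p 0.0402). The remaining lists mark what a dissected testis could bring along or hold in small amounts, and none of their tested genes was called. Lymphocyte genes summed to 65.3 to 87.9, with Cd3g and Cd8a at 3 counts or fewer in every library, fat genes to 246 to 273 and blood genes to 527 to 1034. The 3 blood genes had median log2 fold changes of -0.64 in P2KO against WT, -0.61 in DKO against WT and 0.1 in DKO against P2KO. By edgeR, 2 of them had an unadjusted p under 0.05 in P2KO against WT and 2 in DKO against WT, with 0 in DKO against P2KO. Genes of the epididymis summed to 1.0 to 10.2, and Adam7, Lcn5 and Lcn8 of its 4 markers stayed at 3 counts or fewer in every library.

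In P2KO against WT, which asks what the Padi2 trap line differs in, none of the 182 tested members was called by edgeR's quasi-likelihood test at an adjusted p under 0.05, where 0.337% of all 20744 tested genes were. At an unadjusted p under 0.05 there were 14 members, which is 7.69% against 8.57% of all tested genes, and DESeq2 called 0 members on all 6 libraries and 0 on the 4 libraries of these genotypes. The P2KO and WT libraries did not overlap for 65 members, or 35.7%, against 37.5% of all tested genes. The median absolute log2 fold change was 0.08 over the members and 0.11 over all tested genes, and the members ran from -0.97 to 0.95. Without WT replicate 1, 2 members were called, both named here after their values were seen. They were Arid1a, the DNA-binding subunit of a chromatin remodelling complex, at a log2 fold change of 0.32 (adjusted p = 0.00941), and Pafah2, a hydrolase of oxidized phospholipids, at -0.32 (adjusted p = 0.026). With all 6 libraries Arid1a had 1871 and 1926 counts in WT, 2442 and 2148 in P2KO and 2325 and 2114 in DKO and a log2 fold change of 0.20 (SE 0.0710, adjusted p 0.365), and Pafah2 had 1081 and 1433 counts in WT, 1253 and 949 in P2KO and 1284 and 1251 in DKO and -0.26 (SE 0.0765, adjusted p 0.187).

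In DKO against WT, 30 members were called, or 16.5% of the tested members, against 3.22% of all tested genes. Of these, 12 were higher in DKO (against 2.06% of all tested genes called higher) and 18 were lower (against 1.16% called lower). A change of at least 2-fold was called for 11 members, 3 higher and 8 lower, which is 6.04% beside 0.4% of all tested genes. Left out in turn, the libraries gave 20 to 34 called members, with the rises down to 6 without DKO replicate 1 and to 7 without DKO replicate 2. DESeq2 called 24 members on all 6 libraries and 21, of them 6 rises and 15 falls, on the 4 libraries compared.

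The comparison of DKO with P2KO asks what comes with the Padi4 deletion on top of the Padi2 trap. It called 26 members, or 14.3%, beside 1.21% of all tested genes, with 10 higher (0.607% of all tested genes were called higher) and 16 lower (0.598% were called lower). At least 2-fold were 4 rises and 8 falls, 6.59% of the members beside 0.207% of all tested genes. Both DKO comparisons share the DKO libraries, and P2KO against WT shares libraries with each of them, so their values are given side by side. The rises numbered 16 without WT replicate 2 and from 7 to 16 over all left-out libraries. DESeq2 called 19 members on all 6 libraries and 6 on the 4 libraries compared, where its own filter on mean counts gave no adjusted p for 21 of the 26 members. Csmd2, Rab42, Aunip, Serinc2, Crybg2 and Tmem222 are among these 21. In that fit the calls of the 21 were neither kept nor lost.

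Levels can also be compared without a test. The DKO and WT libraries did not overlap for 100 members (54.9%, against 43.2% of all tested genes), and the DKO and P2KO libraries for 105 (57.7%, against 42.8%). For 73 members, 40.1% of those tested, both DKO libraries lay outside the range of the other 4 libraries, above it for 39 of them, where 22.1% of all tested genes had this pattern. All 30 members called in DKO against WT were among them. For 18 of these 30 the P2KO and WT libraries overlapped, and their log2 fold changes in P2KO against WT ran from -0.37 to 0.15, with a median absolute value of 0.06, which the choice by overlap keeps small. Over all 30 they ran from -0.37 to 0.27, with a median absolute value of 0.09. At an unadjusted p under 0.05 stood 57 members in each DKO comparison, 31.3% beside 14.1% of all tested genes against WT and 11.8% against P2KO. The median absolute log2 fold change of the members was 0.16 in DKO against WT and 0.15 in DKO against P2KO, where it was 0.13 and 0.12 over all tested genes.

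**Figure D1:**
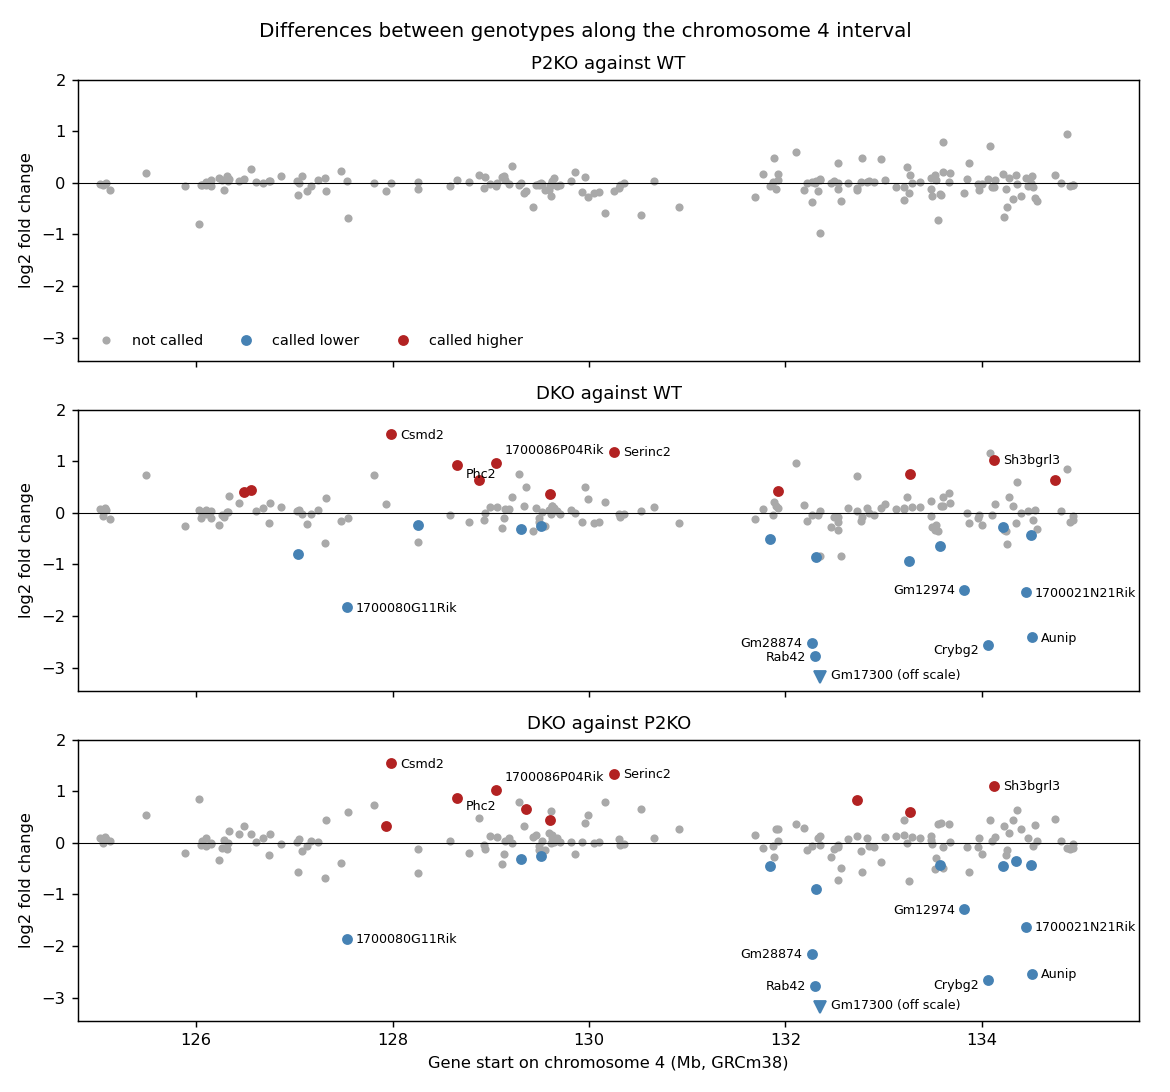
Log2 fold change (vertical axis) of each tested member against its start on chromosome 4 in Mb (horizontal axis), in P2KO against WT, DKO against WT and DKO against P2KO. Grey points were not called, red points were called higher and blue points lower, and Gm17300 is drawn as a triangle at the lower edge because its DKO libraries hold 2 and 0 counts. No point is coloured in P2KO against WT, 30 are in DKO against WT and 26 in DKO against P2KO.

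Called members were spread along the interval, and the first was Ago4, which starts at 126489541. Before Ago4 came 21 tested members without a call in DKO against WT. By steps of 1 Mb, the calls were 0 of 7 tested members from 125 Mb, 2 of 21 from 126 Mb, 3 of 15 from 127 Mb, 3 of 9 from 128 Mb and 4 of 32 from 129 Mb. They were 1 of 10 from 130 Mb, 2 of 8 from 131 Mb, 4 of 26 from 132 Mb, 4 of 26 from 133 Mb and 7 of 28 from 134 Mb. From 132 Mb on, 3 of the 15 called members were higher and 12 lower. The longest stretch between called neighbours lay between Serinc2 and Mecr, 1.59 Mb with 8 uncalled members, and the most uncalled members in a row, 22, lay between Gm17300 and Sytl1. Some neighbours went in opposite directions, as Csmd2 rose and Hmgb4, the next tested member, fell, and Sytl1 fell and Tmem222, the next, rose. Hmgb4, at 128260212-128260957 on the minus strand, lies within the span of Csmd2 on the plus strand, with no shared exon bases.

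The members with roles in male germ cells come first. Of 13 tested members of this list, none was called in P2KO against WT, 2 were lower in DKO against WT (15.4%, beside 16.5% of all members) and 1 was lower in DKO against P2KO (7.69%, beside 14.3%), and the median log2 fold changes were -0.05, -0.09 and -0.01. Hmgb4, a high-mobility-group protein of meiotic and postmeiotic germ cells, stood highest of the list at 11300 normalized counts per kb of exon, and Lin28a, an RNA-binding protein of spermatogonia, lowest at 26.4. Hmgb4 had 7952 and 9981 counts in WT, 9183 and 8137 in P2KO and 7922 and 7406 in DKO. Scaled to a common library size, both DKO libraries fell below the other 4, with 7720 ± 186 normalized counts (mean ± SD, n = 2) against 9099 ± 199 in WT and 8404 ± 366 in P2KO. The fitted log2 difference was -0.24 (SE 0.0567, adjusted p 0.0104) in DKO against WT by the quasi-likelihood test of edgeR, adjusted by Benjamini-Hochberg, and -0.12 (SE 0.0567, adjusted p 0.381) in DKO against P2KO. The call of Hmgb4 was lost without DKO replicate 1 or DKO replicate 2 (log2 fold change -0.26 to -0.22 over the libraries left out in turn).

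Catsper4, a pore subunit of the calcium channel of the sperm tail, had 2572 and 3073 counts in WT, 3792 and 2887 in P2KO and 2480 and 2229 in DKO. After scaling, the DKO libraries were the lowest and the P2KO libraries the highest, and no genotype overlapped another. Its log2 fold change was -0.28 (SE 0.0639, adjusted p 0.00748) in DKO against WT and -0.44 (SE 0.0636, adjusted p 2.53e-05) in DKO against P2KO, with 0.17 in P2KO against WT. The call of Catsper4 against WT was lost without DKO replicate 1 or DKO replicate 2 (log2 fold change -0.29 to -0.27 over the libraries left out in turn). Of 9 other genes of this channel, all on other chromosomes, Catsper2 was lower in DKO against WT, with 5992 and 7581 counts in WT, 7307 and 6011 in P2KO and 6284 and 5657 in DKO and a log2 fold change of -0.20 (SE 0.0566, adjusted p 0.0462), and the other 8 were not called in any comparison. Neither the 4 tektin genes elsewhere, which code for proteins inside the sperm tail's microtubules, nor the 5 testis serine kinase genes elsewhere held a call by edgeR or DESeq2. Over all 8 lists of partner genes elsewhere, 49 were tested, and edgeR called 0 in P2KO against WT, 4 in DKO against WT and 0 in DKO against P2KO, and DESeq2 on the 2 genotypes compared called 0, 2 and 1. The 4 calls are 8.16% of these genes, beside 3.22% of all tested genes. An unadjusted p under 0.05 was found for 7, 10 and 9, or 14.3%, 20.4% and 18.4%, beside 8.57%, 14.1% and 11.8% of all tested genes.

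Among 10 members that act through small RNAs or on mRNA stability, Ago4 was called. Ago4 codes for an argonaute, a protein that binds small RNAs and is found in meiotic germ cells. It had 543 and 570 counts in WT, 665 and 563 in P2KO and 789 and 699 in DKO. Both DKO libraries were the highest of the 6, and the WT and P2KO libraries overlapped. In the fit the log2 fold change was 0.40 (SE 0.0897, adjusted p 0.00596) in DKO against WT and 0.33 (SE 0.0889, adjusted p 0.0533) in DKO against P2KO. This call was lost without WT replicate 2, DKO replicate 1 or DKO replicate 2 (log2 fold change 0.29 to 0.50 over the libraries left out in turn) and with DESeq2 on the 2 genotypes compared. The list's median log2 fold change was -0.03 in P2KO against WT, 0.04 in DKO against WT and 0.06 in DKO against P2KO. None of 8 argonaute, piwi and microRNA-processing genes elsewhere was called, and their median in DKO against WT was 0.14.

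Chromatin and transcription had 19 tested members, of which Phc2 and Trim62 were higher and Rbbp4 lower in DKO against WT, and Phc2 and Zbtb8a were higher and Rbbp4 lower in DKO against P2KO. Phc2 codes for a subunit of Polycomb repressive complex 1. It had 1127 and 1213 counts in WT, 1389 and 1166 in P2KO and 2411 and 2122 in DKO. Both DKO libraries stood far above the other 4, at 2280 ± 42.3 normalized counts (mean ± SD, n = 2) against 1196 ± 104 in WT and 1237 ± 6.56 in P2KO. Expressed as log2 fold change, the difference for Phc2 was 0.93 (SE 0.0710, adjusted p 6.73e-12) against WT and 0.88 (SE 0.0706, adjusted p 4.92e-11) against P2KO in edgeR's quasi-likelihood test, and it was 0.05 in P2KO against WT. Rbbp4, a histone-binding subunit shared by deacetylase, Polycomb and chromatin assembly complexes, had 3894 and 4895 counts in WT, 5144 and 4082 in P2KO and 3779 and 3330 in DKO. Its DKO libraries were the lowest after scaling, and WT and P2KO overlapped. Rbbp4's log2 fold change was -0.32 (SE 0.0598, adjusted p 0.00069) against WT and -0.32 (SE 0.0597, adjusted p 0.0017) against P2KO, and the latter call was lost without P2KO replicate 1 or DKO replicate 2 (log2 fold change -0.34 to -0.28 over the libraries left out in turn). Rbbp4 overlaps exons of genes on the other strand, and since the strand taken for the counts was not stated, reads of overlapping genes cannot be assigned with certainty.

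Trim62, a RING-type ubiquitin ligase, had 97 and 93 counts in WT, 110 and 111 in P2KO and 172 and 129 in DKO. The DKO libraries were the highest, with a wide gap between them. The log2 fold change was 0.64 (SE 0.176, adjusted p 0.0328) against WT and 0.49 (SE 0.172, adjusted p 0.184) against P2KO. The call of Trim62 was lost without WT replicate 2, DKO replicate 1 or DKO replicate 2 (log2 fold change 0.47 to 0.81 over the libraries left out in turn) and with DESeq2, on all 6 libraries as on the 2 genotypes compared. Zbtb8a, a BTB zinc-finger gene that overlaps exons of Zbtb8os on the other strand, had 86 and 141 counts in WT, 104 and 108 in P2KO and 170 and 153 in DKO. Its DKO libraries were the highest, and WT replicate 2 came next. Against P2KO the log2 fold change was 0.66 (SE 0.170, adjusted p 0.0422), lost without P2KO replicate 1, P2KO replicate 2, DKO replicate 1 or DKO replicate 2 (log2 fold change 0.50 to 0.82 over the libraries left out in turn) and with DESeq2 on all 6 libraries, and against WT 0.50 (SE 0.168, adjusted p 0.106). DESeq2 on the 2 genotypes compared gave Zbtb8a no adjusted p against P2KO. Hdac1, a histone deacetylase and the highest of the list at 1030 normalized counts per kb, had 3253 and 3768 counts in WT, 3938 and 3295 in P2KO and 3837 and 3330 in DKO and log2 fold changes of 0.01 against WT and 0.04 against P2KO. The list's median log2 fold change was 0.00 in P2KO against WT, -0.02 in DKO against WT and 0.01 in DKO against P2KO. Of 14 partners in deacetylase and remodelling complexes elsewhere, Arid2 was higher, with 6718 and 7397 counts in WT, 8861 and 7658 in P2KO and 9017 and 8604 in DKO and a log2 fold change of 0.30 (SE 0.0591, adjusted p 0.00122), and Mbd3 was lower, with 2769 and 2965 counts in WT, 3154 and 2558 in P2KO and 2666 and 2282 in DKO and -0.24 (SE 0.0666, adjusted p 0.0395), both in DKO against WT. Against P2KO edgeR called none of the 14 in DKO and DESeq2 on the 2 genotypes compared called 1.

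Splicing and RNA processing had 11 tested members, with medians of -0.04, -0.05 and -0.03 over the 3 comparisons, and the 1 called was Gpatch3, a gene with a G-patch domain. Gpatch3 had 534 and 496 counts in WT, 532 and 414 in P2KO and 346 and 326 in DKO. Both DKO libraries were the lowest, and the WT libraries differed from each other more than the P2KO libraries did. The difference on the log2 scale was -0.64 (SE 0.112, adjusted p 0.000285) against WT, with -0.83 to -0.45 over the libraries left out in turn, and -0.43 (SE 0.113, adjusted p 0.0448) against P2KO. The call of Gpatch3 against P2KO was lost without P2KO replicate 1, P2KO replicate 2, DKO replicate 1 or DKO replicate 2 (log2 fold change -0.47 to -0.38 over the libraries left out in turn) and with DESeq2 on all 6 libraries. DESeq2 on the 2 genotypes compared gave Gpatch3 no adjusted p against P2KO. Rsrp1, an arginine- and serine-rich protein and the list's highest at 934 normalized counts per kb, had 2886 and 3529 counts in WT, 3731 and 2816 in P2KO and 3072 and 2825 in DKO and no call.

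Of 5 members in translation, Trnau1ap was lower in both DKO comparisons, and the list's medians were -0.04, 0.06 and 0.09. Trnau1ap codes for a protein that binds the tRNA of selenocysteine. It had 244 and 314 counts in WT, 340 and 260 in P2KO and 177 and 133 in DKO. The DKO libraries were the lowest and did not overlap the others. Between genotypes the log2 fold change was -0.86 (SE 0.133, adjusted p 4.5e-05) against WT and -0.90 (SE 0.132, adjusted p 4.09e-05) against P2KO, with 0.03 in P2KO against WT. Eif3i, a subunit of the initiation factor that binds the small ribosomal subunit, was the highest at 459 normalized counts per kb, with 1513 and 1877 counts in WT, 1808 and 1457 in P2KO and 1907 and 1662 in DKO and log2 fold changes of 0.06 and 0.19 in the DKO comparisons, not called.

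Replication, repair and mitosis had 8 tested members, among which Aunip fell and Clspn rose in DKO against WT, with medians of 0.06, 0.01 and -0.07 over the 3 comparisons. Aunip, which codes for a partner of the kinase Aurora A that also acts in the repair of DNA breaks, had 254 and 302 counts in WT, 357 and 284 in P2KO and 65 and 41 in DKO. Both DKO libraries lay far below all others, with 52.9 ± 13.3 (mean ± SD, n = 2) against 283 ± 4.65 in WT and 310 ± 10.1 in P2KO. The fitted log2 fold change for Aunip was -2.41 (SE 0.164, adjusted p 3.36e-13) against WT and -2.54 (SE 0.162, adjusted p 1.05e-13) against P2KO, and 0.13 in P2KO against WT. Clspn codes for claspin, the adaptor that lets the kinase ATR activate Chk1 at stalled forks. It had 203 and 243 counts in WT, 293 and 270 in P2KO and 320 and 294 in DKO. After scaling the DKO libraries were the highest, the P2KO libraries came next and the WT libraries were lowest. On the log2 scale the difference was 0.45 (SE 0.120, adjusted p 0.0277) against WT, 0.18 against P2KO and 0.27 in P2KO against WT. The call of Clspn was lost without WT replicate 1, WT replicate 2, DKO replicate 1 or DKO replicate 2 (log2 fold change 0.43 to 0.45 over the libraries left out in turn) and with DESeq2, on all 6 libraries as on the 2 genotypes compared. Nudc, a chaperone for dynein-dependent movement of nuclei and the highest of the list at 1530 normalized counts per kb, had 2202 and 2219 counts in WT, 2607 and 2260 in P2KO and 2182 and 1667 in DKO and log2 fold changes of -0.23 (SE 0.0781, adjusted p 0.115) against WT and -0.29 (SE 0.0778, adjusted p 0.0555) against P2KO. It was called in DKO against P2KO under 8 alternatives, as with DESeq2 on the 2 genotypes compared (adjusted p 0.0231), and in DKO against WT under 3, so whether Nudc is called depends on the settings. Rpa1 and Rpa3, the partners elsewhere of the single-strand binding protein's subunit in the list, were not called.

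The cytoskeleton and membrane traffic list had 14 tested members and 6 calls in DKO against WT (42.9%, beside 16.5% of all members and 3.22% of all tested genes), with Rab42, Sytl1 and Marcksl1 lower and Serinc2, Sh3bgrl3 and Epb41 higher. In DKO against P2KO it had 4 (28.6%, beside 14.3% and 1.21%), Rab42 and Marcksl1 lower and Serinc2 and Sh3bgrl3 higher, and the medians were 0.01, 0.04 and -0.02 over the 3 comparisons. DESeq2 called 4 and 3 of the list on all 6 libraries and 3 and 1 on the 2 genotypes compared. The role lists were chosen with earlier results of these data known, so these shares describe the lists as drawn up and are no measure of a function. The shares called in DKO against WT and in DKO against P2KO were 15.8% and 15.8% for chromatin and transcription, 9.09% and 9.09% for splicing, 20.0% and 20.0% for translation, 25.0% and 12.5% for repair, 11.8% and 17.6% for metabolism and 1 and 0 of 10 members for small RNAs, and no list was tested against the others. Rab42, a small GTPase of the Rab family, had 121 and 145 counts in WT, 167 and 112 in P2KO and 24 and 15 in DKO. The DKO libraries, at 19.4 ± 5.01 normalized counts (mean ± SD, n = 2), lay far below the other 4, at 135 ± 1.47 in WT and 134 ± 20.4 in P2KO. The fitted log2 difference was -2.78 (SE 0.240, adjusted p 1.81e-10) against WT and -2.77 (SE 0.239, adjusted p 2.77e-10) against P2KO, and -0.01 in P2KO against WT. Serinc2, of the serine incorporator family of membrane proteins, had 72 and 87 counts in WT, 73 and 77 in P2KO and 183 and 184 in DKO. After scaling, both DKO libraries held more than 2 times the level of any other library. The log2 fold change for Serinc2 was 1.19 (SE 0.172, adjusted p 1.44e-05) against WT and 1.34 (SE 0.174, adjusted p 3.46e-06) against P2KO.

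Sh3bgrl3, a small protein of the thioredoxin fold, had 84 and 129 counts in WT, 106 and 104 in P2KO and 261 and 179 in DKO. Its DKO libraries were the highest and differed from each other. In the fit the log2 fold change was 1.03 (SE 0.165, adjusted p 7.38e-05) against WT and 1.11 (SE 0.165, adjusted p 4.47e-05) against P2KO. Sh3bgrl3 overlaps exons of Ubxn11 on the other strand, which had far more counts, 7452 and 9086 counts in WT, 9157 and 7246 in P2KO and 8664 and 7565 in DKO, and a log2 fold change of -0.04 against WT. Sytl1, an effector of Rab27 in secretion, had 71 and 83 counts in WT, 74 and 68 in P2KO and 56 and 26 in DKO. DKO replicate 2 was the lowest, and DKO replicate 1 came close to the P2KO libraries. Expressed as log2 fold change, the difference was -0.93 (SE 0.248, adjusted p 0.0261) against WT and -0.74 (SE 0.251, adjusted p 0.166) against P2KO. The call of Sytl1 was lost without WT replicate 2 or DKO replicate 2 (-0.55 without the latter) and with DESeq2, on all 6 libraries as on the 2 genotypes compared, and without DKO replicate 1 the value was -1.51.

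Epb41 codes for protein 4.1, which ties spectrin and actin to the membrane. It had 243 and 305 counts in WT, 371 and 277 in P2KO and 401 and 343 in DKO. The genotypes did not overlap after scaling, with WT lowest and DKO highest. The log2 fold change was 0.43 (SE 0.113, adjusted p 0.0241) against WT, 0.26 against P2KO and 0.17 in P2KO against WT. The call of Epb41 was lost without WT replicate 1, WT replicate 2, DKO replicate 1 or DKO replicate 2 (log2 fold change 0.38 to 0.46 over the libraries left out in turn) and with DESeq2, on all 6 libraries as on the 2 genotypes compared. Epb41 overlaps exons of Gm13063 and Gm10300 on the other strand, so some of its reads may belong to them. Marcksl1, an actin-binding protein kinase C substrate, had 1870 and 2273 counts in WT, 2417 and 1939 in P2KO and 1920 and 1588 in DKO. Its DKO libraries were the lowest after scaling. The difference on the log2 scale was -0.26 (SE 0.0671, adjusted p 0.0222) against WT, lost without WT replicate 2 or DKO replicate 2 (log2 fold change -0.33 to -0.20 over the libraries left out in turn) and with DESeq2 on the 2 genotypes compared. In DKO against P2KO it reached -0.26 (SE 0.0670, adjusted p 0.0451), lost without P2KO replicate 1, P2KO replicate 2, DKO replicate 1 or DKO replicate 2 (log2 fold change -0.33 to -0.19 over the libraries left out in turn) and with DESeq2 on all 6 libraries. Kpna6, an importin alpha that carries proteins into the nucleus and the highest of the list at 1370 normalized counts per kb, had 7939 and 9392 counts in WT, 10481 and 8931 in P2KO and 9897 and 8902 in DKO and no call. Of 7 genes of the nuclear Ran system elsewhere, Ranbp2, a nucleoporin, was higher in DKO against WT, with 3425 and 3876 counts in WT, 4465 and 4045 in P2KO and 4658 and 4679 in DKO and a log2 fold change of 0.34 (SE 0.0645, adjusted p 0.000788). The 3 stathmin genes elsewhere were too low to be tested.

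The next 4 lists, with 27 tested members, held no call in any comparison by edgeR's quasi-likelihood test or by DESeq2, and at an unadjusted p under 0.05 they held 1 in P2KO against WT and 5 in each DKO comparison. These are 3.7%, 18.5% and 18.5%, beside 8.57%, 14.1% and 11.8% of all tested genes. The 15 tested kinases, phosphatases and signalling genes had median log2 fold changes of 0.04, 0.08 and 0.02 over the 3 comparisons. Their highest, Tssk3, a kinase of the spermatid, stood at 3660 normalized counts per kb, with 4162 and 5321 counts in WT, 5384 and 4392 in P2KO and 4909 and 4097 in DKO. The 7 immune cell genes were low, with medians of -0.13, -0.08 and -0.13, and the highest, the T-cell kinase gene Lck, stood at 14.4 normalized counts per kb, with 43 and 47 counts in WT, 41 and 45 in P2KO and 37 and 39 in DKO. At counts this low a small difference was not detectable. Of 4 connexin genes, 2 were members, with medians of -0.03, -0.15 and -0.12. Of 4 extracellular matrix genes, 3 were members, with medians of -0.19, -0.08 and 0.05, and the highest, the collagen gene Col16a1, stood at 791 normalized counts per kb, with 5237 and 6199 counts in WT, 5996 and 4591 in P2KO and 5031 and 5052 in DKO and a log2 fold change of -0.19 (SE 0.0619, adjusted p 0.0833) in DKO against WT.

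Metabolism, mitochondria and transport had 17 tested members, with medians of -0.02, 0.00 and 0.09. Mecr, the last enzyme of fatty acid synthesis in mitochondria, had 451 and 545 counts in WT, 548 and 450 in P2KO and 393 and 314 in DKO. Lowest were both DKO libraries. Between genotypes the log2 fold change was -0.51 (SE 0.101, adjusted p 0.00142) against WT, lost without DKO replicate 2 (log2 fold change -0.61 to -0.43 over the libraries left out in turn). In DKO against P2KO it reached -0.44 (SE 0.101, adjusted p 0.0147), lost without P2KO replicate 1, P2KO replicate 2 or DKO replicate 2 (log2 fold change -0.54 to -0.36 over the libraries left out in turn) and with DESeq2 on all 6 libraries. DESeq2 on the 2 genotypes compared gave Mecr no adjusted p against P2KO.

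Against P2KO alone the list had 2 further calls, whose log2 fold changes against WT were not called, while the difference between the 2 comparisons was not tested. Smpdl3b, a phosphodiesterase of the sphingomyelinase type at the membrane, had 51 and 54 counts in WT, 54 and 47 in P2KO and 91 and 83 in DKO. DKO stood highest, and the other 4 libraries were near each other. Its fitted log2 fold change was 0.84 (SE 0.215, adjusted p 0.0394) against P2KO and 0.71 (SE 0.214, adjusted p 0.0592) against WT, and the former call was lost without P2KO replicate 1, P2KO replicate 2, DKO replicate 1 or DKO replicate 2 (log2 fold change 0.81 to 0.88 over the libraries left out in turn) and with DESeq2 on all 6 libraries. DESeq2 on the 2 genotypes compared gave Smpdl3b no adjusted p against P2KO. Slc30a2, a zinc transporter of vesicles, had 997 and 1085 counts in WT, 1288 and 1155 in P2KO and 1029 and 820 in DKO. After scaling DKO was lowest and P2KO highest. On the log2 scale the difference was -0.35 (SE 0.0806, adjusted p 0.0147) against P2KO and -0.19 (SE 0.0815, adjusted p 0.244) against WT, and the former call was lost without P2KO replicate 2 or DKO replicate 2 (log2 fold change -0.45 to -0.26 over the libraries left out in turn) and with DESeq2 on all 6 libraries. DESeq2 on the 2 genotypes compared gave Slc30a2 no adjusted p against P2KO. Fabp3, a fatty acid carrier and the list's highest at 1870 normalized counts per kb, had 1342 and 1787 counts in WT, 1667 and 1398 in P2KO and 1609 and 1476 in DKO and no call.

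In all, 119 members stood in a role list and 64 in none, and protein-coding genes among the latter held several of the larger differences. Csmd2, a large membrane gene with CUB and sushi domains at chr4:127987857-128567656 on the plus strand, had 135 and 165 counts in WT, 166 and 147 in P2KO and 406 and 468 in DKO. Both DKO libraries held more than 2 times the counts of any other library, at 442 ± 75.8 normalized counts (mean ± SD, n = 2) against 152 ± 0.467 in WT and 152 ± 6.54 in P2KO. The fitted log2 difference for Csmd2 was 1.53 (SE 0.133, adjusted p 1.81e-10) against WT, 1.54 (SE 0.132, adjusted p 2.61e-10) against P2KO and -0.01 in P2KO against WT. Crybg2, a gene of the beta-gamma crystallin family, had 138 and 139 counts in WT, 178 and 132 in P2KO and 21 and 26 in DKO. The DKO libraries were far below the rest, at 23.8 ± 5.27 normalized counts against 142 ± 18.9 in WT and 149 ± 12.3 in P2KO. The log2 fold change for Crybg2 was -2.57 (SE 0.228, adjusted p 3e-10) against WT and -2.65 (SE 0.225, adjusted p 2.25e-10) against P2KO. Crybg2 overlaps exons of the lymphocyte gene Cd52 on the other strand, which had 8 and 6 counts in WT, 8 and 16 in P2KO and 19 and 13 in DKO and was not called, at 1.16 (SE 0.541, adjusted p 0.319) against WT.

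Tmem222, a transmembrane gene, had 352 and 409 counts in WT, 501 and 389 in P2KO and 661 and 633 in DKO. Its DKO libraries were the highest, P2KO came next and WT was lowest. In the fit the log2 fold change was 0.75 (SE 0.0963, adjusted p 1.62e-06) against WT and 0.60 (SE 0.0946, adjusted p 0.00012) against P2KO, with 0.15 in P2KO against WT. Tmem234, another transmembrane gene, had 583 and 749 counts in WT, 769 and 573 in P2KO and 939 and 803 in DKO. DKO stood highest, and the others overlapped. Expressed as log2 fold change, the difference was 0.37 (SE 0.0851, adjusted p 0.00642) against WT, lost without DKO replicate 1 (log2 fold change 0.33 to 0.41 over the libraries left out in turn) and with DESeq2 on the 2 genotypes compared. In DKO against P2KO it reached 0.44 (SE 0.0850, adjusted p 0.00277), lost without P2KO replicate 2 or DKO replicate 1 (log2 fold change 0.37 to 0.52 over the libraries left out in turn). DESeq2 on the 2 genotypes compared gave Tmem234 no adjusted p against P2KO. Tmem234 overlaps exons of 3 genes on the other strand, Dcdc2b, Iqcc and Ccdc28b, none of which was called in a comparison.

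Paqr7, a membrane receptor for progesterone, was named after its values were seen. It had 1059 and 1289 counts in WT, 1374 and 1093 in P2KO and 945 and 822 in DKO. The DKO libraries were the lowest after scaling, and WT and P2KO overlapped. The log2 fold change for Paqr7 was -0.43 (SE 0.0751, adjusted p 0.000315) against WT and -0.42 (SE 0.0748, adjusted p 0.000757) against P2KO. CK137956 had 3842 and 4703 counts in WT, 4470 and 3582 in P2KO and 5018 and 4690 in DKO. DKO was highest, WT came next and P2KO was lowest after scaling. The difference on the log2 scale was 0.33 (SE 0.0589, adjusted p 0.000878) against P2KO, 0.17 (SE 0.0588, adjusted p 0.118) against WT and -0.16 in P2KO against WT, and the call against P2KO was lost without DKO replicate 2 (log2 fold change 0.31).

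Of 19 tested long noncoding members, 7 were called in DKO against WT, 1 higher and 6 lower, beside 23 of 160 protein-coding members. Among all tested genes these types had 65 of 3526 and 571 of 15622 calls. In DKO against P2KO, 1 long noncoding member was higher and 5 were lower, beside 4 and 19 of the 3526 long noncoding genes and 126 and 124 of all 20744 tested genes. The 20 members comprise 11 intergenic, 6 antisense and 3 processed transcripts, and the median log2 fold change of the 19 in DKO against WT was -0.19, where it was -0.09 over all tested long noncoding genes.

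Gm17300 (ENSMUSG00000091021), an intergenic RNA in the annotation at chr4:132351772-132353382 on the plus strand, had 159 and 234 counts in WT, 240 and 190 in P2KO and 2 and 0 in DKO. The DKO libraries thus held almost none of it, and each of the other 4 held 159 counts or more. By counts, WT held 198 times the level of DKO (95% exact interval 54.6 to 1640) and P2KO 207 times (56.9 to 1710), and the intervals cover counting error only. Without DKO replicate 1, which holds both counts, DKO is at 0. The test gave adjusted p = 9.21e-17 against WT and 9.71e-17 against P2KO, and P2KO against WT had a log2 fold change of 0.06. Gm17300 overlaps exons on the other strand of Rcc1, the exchange factor of Ran, which had 5452 and 6597 counts in WT, 6307 and 5113 in P2KO and 6115 and 5614 in DKO and a log2 fold change of -0.05 (SE 0.0568, adjusted p 0.761) in DKO against WT. Rcc1 is not its only overlap on that strand. The member Snora73b, a small nucleolar RNA, had 14 and 20 counts in WT, 7 and 11 in P2KO and 7 and 12 in DKO. Snora73b was not called, at -0.84 (SE 0.495, adjusted p 0.482) in DKO against WT and -0.97 (SE 0.5, adjusted p 0.6) in P2KO against WT.

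Gm28874 (ENSMUSG00000100813), an intergenic RNA at chr4:132265708-132268841 on the plus strand, had 51 and 100 counts in WT, 62 and 59 in P2KO and 8 and 18 in DKO. The DKO libraries were the lowest, and WT replicate 2 stood above all others. Between genotypes the log2 fold change was -2.52 (SE 0.333, adjusted p 2.91e-06) against WT and -2.15 (SE 0.345, adjusted p 0.000161) against P2KO. The first call held without each library in turn, with -1.99 without DKO replicate 1 and -3.29 without DKO replicate 2, and the second was lost without DKO replicate 1 (-1.62), while DESeq2 on all 6 libraries gave the gene no adjusted p. 1700080G11Rik (ENSMUSG00000086771), at chr4:127531622-127532885 on the plus strand, had 245 and 359 counts in WT, 353 and 291 in P2KO and 82 and 88 in DKO. Both DKO libraries were far below the other 4, at 85.9 ± 10.4 normalized counts (mean ± SD, n = 2) against 304 ± 39.8 in WT and 311 ± 2.34 in P2KO. Its fitted log2 fold change was -1.83 (SE 0.148, adjusted p 3.44e-11) against WT and -1.86 (SE 0.147, adjusted p 4.11e-11) against P2KO.

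1700021N21Rik (ENSMUSG00000087343), typed as antisense at chr4:134448766-134450171 on the minus strand, had 121 and 138 counts in WT, 138 and 151 in P2KO and 51 and 39 in DKO. DKO was lowest in both libraries, and WT and P2KO overlapped. On the log2 scale the difference was -1.54 (SE 0.204, adjusted p 3.3e-06) against WT and -1.63 (SE 0.202, adjusted p 1.4e-06) against P2KO. Gm12974 (ENSMUSG00000084789), at chr4:133816420-133817614 on the plus strand, had 165 and 200 counts in WT, 182 and 153 in P2KO and 61 and 70 in DKO. After scaling WT was highest, P2KO lower and DKO far below both. The fitted log2 difference for Gm12974 was -1.49 (SE 0.171, adjusted p 1.66e-07) against WT, -1.29 (SE 0.173, adjusted p 6.46e-06) against P2KO and -0.19 in P2KO against WT.

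The 1 long noncoding member that rose was 1700086P04Rik (ENSMUSG00000085085), at chr4:129050097-129057983 on the minus strand. It had 328 and 424 counts in WT, 407 and 346 in P2KO and 758 and 723 in DKO. Both DKO libraries were well above the other 4, at 746 ± 28.6 normalized counts (mean ± SD, n = 2) against 381 ± 16.3 in WT. Its log2 fold change was 0.97 (SE 0.0947, adjusted p 3.88e-09) against WT and 1.03 (SE 0.0946, adjusted p 1.36e-09) against P2KO. Gm12940, a processed transcript named after its values were seen, had 145 and 191 counts in WT, 165 and 133 in P2KO and 82 and 112 in DKO. Lowest were the DKO libraries, replicate 1 below replicate 2. In the fit the log2 fold change was -0.80 (SE 0.172, adjusted p 0.00386) against WT, -0.56 against P2KO and -0.24 in P2KO against WT. The call of Gm12940 was lost without DKO replicate 1 (log2 fold change -1.12 to -0.53 over the libraries left out in turn) and with DESeq2 on the 2 genotypes compared. Gm12940 overlaps exons of Sfpq on its own strand and of Zmym1 on the other, which had log2 fold changes of 0.04 and 0.06 in DKO against WT.

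**Figure D2:**
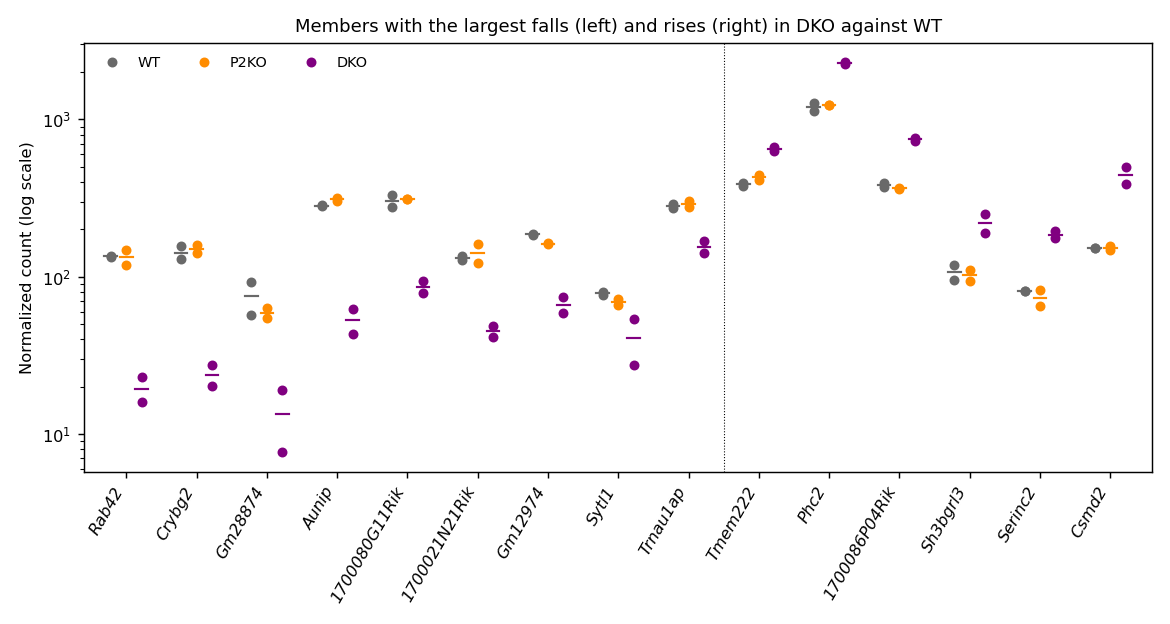
Normalized counts (log axis) of called members in each library, with WT, P2KO and DKO libraries as separate points and the mean of each genotype as a bar. Gm17300 is left out because a DKO library holds 0 counts. The DKO points of Rab42, Crybg2, Aunip and 1700080G11Rik lie below all other points of these genes, and those of Csmd2, Serinc2 and Phc2 above.

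Exon lengths of called members are given without a test of a difference. The median exon length was 5.98 kb for the 12 that rose in DKO against WT, 2.09 kb for the 18 that fell and 3.4 kb for the members not called. Of the 18 that fell, 6 are long noncoding, and the median over the 19 tested long noncoding members was 0.873 kb. The median normalized counts of those that rose, those that fell and those not called were 296, 224 and 369. Exons that overlap a gene of the other strand occurred in 40 members and in 7 of the 30 called. A near-identical transcript of another gene existed for 14 members, and none of these was called in a DKO comparison by edgeR on all 6 libraries as set. Under 1 alternative or more, 3 of the 14 were, Nudc among them.

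A stretch of the interval near 132.3 Mb held 4 of the called members, all lower in DKO. In order of their starts they are Gm28874 at 132265708, Rab42 at 132302197, Trnau1ap at 132311763 and Gm17300 at 132351772. Between Gm28874 and Rab42 lay 1 uncalled member, and so it did between Trnau1ap and Gm17300. A start here is the lower coordinate of a gene on either strand. Rab42 and Trnau1ap, both on the minus strand, follow each other among the tested members, with lower coordinates 0.00957 Mb apart. On this strand transcription begins at the upper coordinate, and their promoter windows lie further apart, from 132303357 and from 132329539. Genes that are not members were not counted here. Paqr7 and Aunip, near 134.5 Mb on the plus strand, likewise follow each other among the tested members, and both were lower in DKO.

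**Figure D3:**
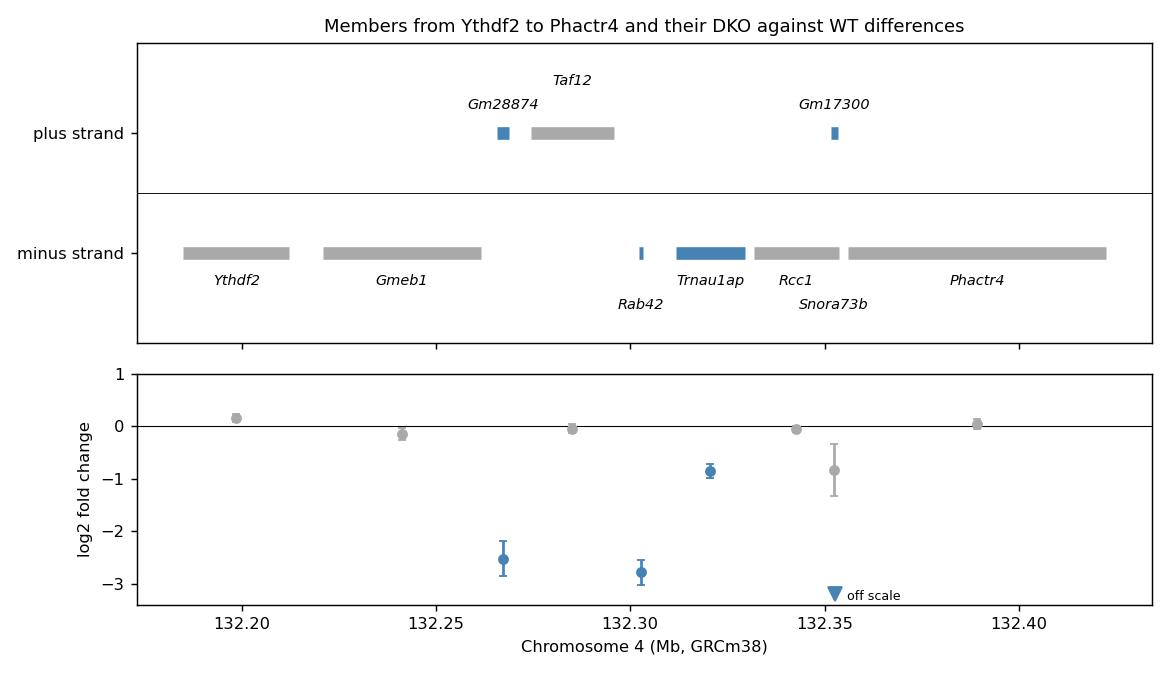
Members around Rab42 on chromosome 4 in Mb (horizontal axis), drawn to scale by strand, with the log2 fold change of each in DKO against WT below, where bars are the standard error. Blue members were called lower, grey ones were not called, and genes that are not members are not drawn. Gm17300 is off the scale and drawn as a triangle, and Gm28874, Rab42 and Trnau1ap stand at -2.52, -2.78 and -0.86.

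RefSeq holds promoter entries for 142 members in GRCm38.p6. The 250 bases before the start were searched on both strands for CCAAT, for GGGCGG and for TGACGTCA, of which none contains another. Of 14083 tested genes with an entry, 39.4%, 54.3% and 2.68% have them in at least 1 of their promoters, and members are counted in the same way. Counted singly, 33.8%, 32.7% and 1.55% of 32851 promoters hold them. Among members with an entry, GGGCGG was found in 7 of 10 that rose in DKO against WT, 6 of 13 that fell and 72 of 119 that were not called. CCAAT was found in 5, 4 and 49 of these, and TGACGTCA in 1, 0 and 3. The pairs Rab42 and Trnau1ap, and Paqr7 and Aunip, are shown because each gene was lower in both DKO comparisons and is next in order to another tested member that was. Their windows are chr4:132303357-132303606 and chr4:132329539-132329788 (minus strand), chr4:134496511-134496760 and chr4:134496791-134497040 for the 2 promoters of Paqr7 (plus strand) and chr4:134510749-134510998 (plus strand), printed 5′ to 3′, with GGGCGG or its reverse complement CCGCCC in capitals. The first window of Paqr7 holds none of the 3 motifs. Such a match is a description of letters.
Rab42: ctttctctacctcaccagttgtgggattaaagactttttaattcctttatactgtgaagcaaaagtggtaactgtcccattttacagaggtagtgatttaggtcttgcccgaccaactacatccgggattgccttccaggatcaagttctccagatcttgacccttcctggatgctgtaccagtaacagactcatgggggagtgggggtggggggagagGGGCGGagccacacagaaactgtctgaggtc
Trnau1ap: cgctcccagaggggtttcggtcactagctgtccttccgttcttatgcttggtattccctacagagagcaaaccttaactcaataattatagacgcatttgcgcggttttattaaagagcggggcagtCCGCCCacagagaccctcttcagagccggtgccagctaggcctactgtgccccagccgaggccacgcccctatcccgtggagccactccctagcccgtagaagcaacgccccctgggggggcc
Paqr7 promoter 1: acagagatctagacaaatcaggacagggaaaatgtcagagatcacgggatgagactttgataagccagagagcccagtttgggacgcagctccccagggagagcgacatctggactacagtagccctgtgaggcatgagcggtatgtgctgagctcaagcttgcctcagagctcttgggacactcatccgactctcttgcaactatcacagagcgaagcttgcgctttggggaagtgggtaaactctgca
Paqr7 promoter 2: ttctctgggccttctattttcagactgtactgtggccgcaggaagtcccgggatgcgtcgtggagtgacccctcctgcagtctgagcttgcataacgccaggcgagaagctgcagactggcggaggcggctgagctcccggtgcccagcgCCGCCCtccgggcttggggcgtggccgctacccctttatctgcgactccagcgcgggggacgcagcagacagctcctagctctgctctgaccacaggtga
Aunip: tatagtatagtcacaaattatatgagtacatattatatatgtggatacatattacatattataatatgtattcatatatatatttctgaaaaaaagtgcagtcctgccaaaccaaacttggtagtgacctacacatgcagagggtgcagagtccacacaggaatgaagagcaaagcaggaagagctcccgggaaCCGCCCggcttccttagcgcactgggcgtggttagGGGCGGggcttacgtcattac

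The genes on either side of the limits are given as a description. Just inside its start, Gnl2, a GTPase of the nucleolus, had 1517 and 1802 counts in WT, 1884 and 1556 in P2KO and 1764 and 1746 in DKO and a log2 fold change of 0.07 (SE 0.0685, adjusted p 0.742) in DKO against WT. Just outside it, Rspo1, a Wnt agonist that starts at 124986430, had 6 and 15 counts in WT, 8 and 6 in P2KO and 6 and 17 in DKO and 0.14 (SE 0.554, adjusted p 0.955). At the other end Syf2, a splicing factor, had 854 and 1078 counts in WT, 1107 and 871 in P2KO and 978 and 893 in DKO and -0.06 (SE 0.0771, adjusted p 0.816). Beyond it Runx3, a transcription factor that starts at 135120652, had 356 and 386 counts in WT, 418 and 319 in P2KO and 67 and 75 in DKO. Both DKO libraries of Runx3 were far below the other 4, and its log2 fold change was -2.40 (SE 0.146, adjusted p 1.49e-14) against WT and -2.31 (SE 0.146, adjusted p 9.96e-14) against P2KO.

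Along chromosome 4 the counts of called genes differed between windows, given here without a test of the difference. Before 115 Mb, 13 of 561 tested genes were called in DKO against WT and 7 in DKO against P2KO. From 115 to 125 Mb there were 19 and 14 of 158, beside the 30 and 26 of 182 members. From 135 to 140 Mb there were 30 and 11 of 80, from 140 to 145 Mb 11 and 4 of 52, from 145 to 150 Mb 27 and 2 of 83, and from 150 Mb to the end 0 and 0 of 106. In P2KO against WT there was 1 call before 115 Mb, 13 from 135 to 140 Mb, 1 from 140 to 145 Mb, 22 from 145 to 150 Mb and 0 in the other windows.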

How the data were processed

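RNA of testes from 2 mice per genotype was measured. The counts the authors deposited are reads per gene, unnormalized, from STAR on GRCm38 after Trim Galore and cutadapt, with no versions stated, nor which strand column was taken. Positions, types and overlaps come from GENCODE release 21 (Ensembl release 96). With edgeR 4.0.16 in R 4.3.3, 20744 genes passed filterByExpr (minimum count 10). Libraries were TMM-scaled, and the quasi-likelihood test was run on all 6 in 1 fit with a genotype term (3 residual degrees of freedom). Calls had a Benjamini-Hochberg adjusted p under 0.05 over all tested genes. SE is the absolute log2 fold change over the square root of F. Normalized counts are counts scaled to the geometric mean of the TMM-adjusted library sizes. Members and the lists of 12 roles, 8 partner groups and 13 cell types were chosen with earlier results of these data known. Named are the 10 largest rises and falls whose libraries do not overlap per comparison, each role list's called members and highest gene per kb, the genes at the limits, Padi2 and Padi4, unless said otherwise, and not every gene the rule covers is reported. Near-identical copies are BLAST 2.17.0 matches (95% identity, 150 nucleotides, 50% of the shorter transcript). Alternatives were RLE, upper-quartile and off-chromosome 4 scaling, no filter, a mean filter of 50, a prior count of 2, DESeq2 1.42.0, edgeR on 2 genotypes, the replicate block and each library left out.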

Additional observations from a re-analysis of the deposited data

How the results depend on the processing

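In P2KO against WT, 0 members were called under each alternative except without WT replicate 1, so the left-out libraries gave 0 to 2 calls (0 to 1 higher and 0 to 1 lower). In DKO against WT they gave 20 to 34 calls, with 6 to 16 rises, and DESeq2 on the 2 genotypes compared gave 6 rises. In DKO against P2KO they gave 7 to 16 rises, and DESeq2 on the 2 genotypes compared gave 6 calls, 2 higher and 4 lower. For 21 of the 26 members called there, DESeq2's filter on mean counts left no adjusted p. Where a genotype was left with 1 library, it was taken to vary like the others. Of 894 values of the 56 called log2 fold changes under the alternatives, 789 stayed past the threshold, 105 did not and 0 changed sign. Values without an adjusted p are counted among the 105. Under every alternative run, 17 of the 30 calls in DKO against WT held, and 2 of the 26 in DKO against P2KO, where a missing adjusted p counts as not held. Gm28874 fell under the mean filter of 50 and has no value there, and Zbtb8a was not past the threshold with it.

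With the replicate number as a block, 0, 29 and 22 members were called in P2KO against WT, DKO against WT and DKO against P2KO, and the calls of Trim62 against WT and of Gpatch3, Marcksl1, Smpdl3b and Zbtb8a against P2KO were lost. The labels do not say whether the numbers pair samples. Deviations of same-numbered libraries from their genotype's mean correlated at -0.0572 for WT and P2KO, 0.0574 for WT and DKO and -0.0502 for P2KO and DKO. No strong shared shift was seen, which cannot tell whether same-numbered mice were handled together. The 73 members with DKO outside the other libraries numbered 73 under RLE and under upper-quartile scaling. Depth limits what can be said of members other than the 167 of 183 with 10 or more counts in every library.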
